A study of Homo sapiens with 6 samples.

Results

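The genes examined here carry, make, break down or sense retinoic acid, and there are 9 of them: CRABP2, STRA6, RARA, RARB, RARG, RXRA, RXRB, ALDH1A3 and DHRS3. They were taken as every probe set that the annotation of the array gives to exactly 1 gene with one of these names, which found 38 probe sets among the 39219 of the deposited table, and all 38 were among the 39063 tested. The 9 names were listed with earlier results of the same comparison known, the decrease of CRABP2 among them, so their differences are given as a description with no test. PANC-1, an established human line of pancreatic ductal carcinoma, was grown in medium with fetal bovine serum and exposed for 48 h to anlotinib at 5.535 μM, an inhibitor of several receptor tyrosine kinases, or to DMSO, its solvent, as control. The study was set up to look for changes of gene expression under the drug. Each group had 3 samples, and RNA of each was read on 1 Affymetrix PrimeView array. No label states that the 3 samples came from separate cultures, so p-values measure only the spread between these samples, which may be technical. A single line was used, and cells that carry another genotype were not compared.

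Cells take up retinol, the alcohol form of vitamin A, and oxidize it in 2 steps, first reversibly to retinaldehyde and then irreversibly to retinoic acid. A binding protein carries retinoic acid to the nucleus, where the receptors RARA, RARB and RARG, each paired with a retinoid X receptor, sit on DNA and switch from repression to activation of nearby genes when the acid binds. Several of the genes that handle retinoic acid are themselves induced by it, among them RARB, CRABP2, DHRS3, STRA6 and the CYP26 enzymes that destroy it, which makes the pathway a feedback loop. In the pancreas, retinoic acid is best known for its part in the development of the organ, and the stellate cells of its stroma store retinol as esters.

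The classical element of a retinoic acid receptor is a repeat of a hexamer in one orientation with a spacer of 5 bases. The hexamer AGGTCA and its variants GGGTCA (G first), AGTTCA (T in the middle) and GGTTCA (both changes) were searched on both strands of the 250 bases before each start in the RefSeq promoter table (build GRCh38.p14), as single sites and as repeats with spacers of 1, 2 or 5 bases. Among 35116 starts, 33.8% held a single site and 0.074% a repeat with a spacer of 5 bases, 0.0313% one of 2 bases and 0.0968% one of 1 base. All 9 genes had starts in the table, 22 in all. A single site lay before 10 of them (45.5%), and a repeat before 1, which was the first start listed for RARB. Single sites can overlap a repeat and were counted in it too. The promoters of RARB, which shows the element, and of CRABP2 and DHRS3, the members with the lowest differences, are printed below, each 250 bases long, 5′ to 3′ on the strand of the gene. Capitals mark the repeat in RARB, which begins 53 bases before the start, and the single hexamer in CRABP2, which begins 249 bases before the start. The sequence of DHRS3 at its first listed start holds no match, while the other 2 starts of DHRS3 each have a single site. The lack of a match says only that these letters are not in this window.
RARB (GRCh38.p14, chr3:25428013-25428262, plus strand): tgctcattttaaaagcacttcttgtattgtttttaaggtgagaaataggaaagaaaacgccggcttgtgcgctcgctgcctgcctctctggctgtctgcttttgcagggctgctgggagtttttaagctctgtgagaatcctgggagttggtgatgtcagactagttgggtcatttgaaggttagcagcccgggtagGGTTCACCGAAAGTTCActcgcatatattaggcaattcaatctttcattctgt
CRABP2 (GRCh38.p14, chr1:156705785-156706034, minus strand): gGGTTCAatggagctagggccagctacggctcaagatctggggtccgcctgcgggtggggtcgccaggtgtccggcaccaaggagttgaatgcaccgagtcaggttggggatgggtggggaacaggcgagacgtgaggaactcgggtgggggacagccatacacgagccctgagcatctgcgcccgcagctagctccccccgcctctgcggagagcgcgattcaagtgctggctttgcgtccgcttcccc
DHRS3 (GRCh38.p14, chr1:12618211-12618460, minus strand): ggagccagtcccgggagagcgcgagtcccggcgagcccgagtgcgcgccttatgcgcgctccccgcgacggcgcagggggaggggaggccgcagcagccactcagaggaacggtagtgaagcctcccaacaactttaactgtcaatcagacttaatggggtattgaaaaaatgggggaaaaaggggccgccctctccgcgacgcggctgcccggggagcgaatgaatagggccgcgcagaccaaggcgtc
The same search found a repeat with a spacer of 5 bases before CYP26A1, a retinoic acid hydroxylase that is not analysed here, at chr10:93073803-93073819, 90 bases before its start. It reads in capitals as it stands on the plus strand, so that the hexamers appear as their reverse complements.
CYP26A1 (GRCh38.p14, plus strand): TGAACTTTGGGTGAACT

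Values are log2 signals made by the authors with RMA, and differences are anlotinib minus DMSO on that scale, fitted with limma. A probe set was called when the groups differed by 2 times or more with a false discovery rate (FDR) under 0.05, which 4.09% of all tested probe sets did, 2.38% higher and 1.71% lower with anlotinib. Array medians ran from 7.71 to 7.77, and signals in the table end at a mean of about 4.415. Markers of leukocytes, endothelial cells and acinar cells, 11 in all, served as a guide to signals without much transcript behind them. A culture of this line should lack these markers. They read 4.72 to 6.54 at their brightest probe sets, and limma called 0 of them. On the FDR alone, 1 leukocyte marker was higher and 2 endothelial markers were lower, beside 25.4% and 29.7% of all genes. Markers of the line itself had clear signals, with DMSO means of 14.12 for KRT8, 14.59 for KRT18, 13.48 for KRT19 and 14.46 for VIM. With limma 5 of the 7 markers of the line were lower at an FDR under 0.05 at their brightest probe sets without being called, beside 29.7% of all genes lower. A dimmer probe set of KRT8 was called, at −1.003 (SE 0.07). The list median was −0.34, beside −0.04 over all genes, and the part of this shift in the results was not tested. Among 6 markers of stellate cells and fibroblasts, the highest mean was 6.45 and LRAT, which makes the stored esters, read 4.63 in DMSO and 4.72 with anlotinib. In bulk RNA, fewer cells that express a gene and less RNA per cell cannot be told apart.

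CRABP2, the carrier that takes retinoic acid to its receptors, was lower with anlotinib at each of its 3 probe sets, by 5.12 to 5.58 times. At the brightest, its log2 signals in DMSO were 10.83, 10.83 and 10.82, and with anlotinib they were 8.35, 8.24 and 8.45. The groups lay far apart, with the 3 DMSO arrays almost equal, and the means were 10.83 ± 0.0045 (SD, n = 3) and 8.35 ± 0.11 (SD, n = 3). The fitted log2 difference was −2.48 (SE 0.06), and it was −2.41 (SE 0.05) and −2.36 (SE 0.07) at the other 2 probe sets. In the second brightest, the DMSO arrays read 10.76, 10.71 and 10.68 and the anlotinib arrays 8.23, 8.36 and 8.49. In the dimmest, the arrays read 10.34, 10.42 and 10.31 against 7.96, 7.91 and 7.97. All anlotinib signals of CRABP2 stayed above the range of the markers that the line should lack, so the transcript was reduced and still read. Over the alternatives and with any single array left out, the difference at the brightest probe set ran from −2.53 to −2.43.

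STRA6, the membrane receptor that takes up retinol from its plasma carrier RBP4, had low signals in both groups. Its brightest probe set read 6.26, 6.14 and 6.30 in DMSO and 6.13, 5.89 and 5.84 with anlotinib. The groups were close to each other there, although each anlotinib array lay below each DMSO array, and at one other probe set they overlapped. The 3 probe sets of STRA6 gave log2 differences of −0.28 (SE 0.08), −0.31 (SE 0.13) and −0.33 (SE 0.06). All 3 had mean signals between 4.76 and 6.09, inside the range of the absent markers, so whether the transcript was present cannot be read from these signals.

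**Figure D1:**
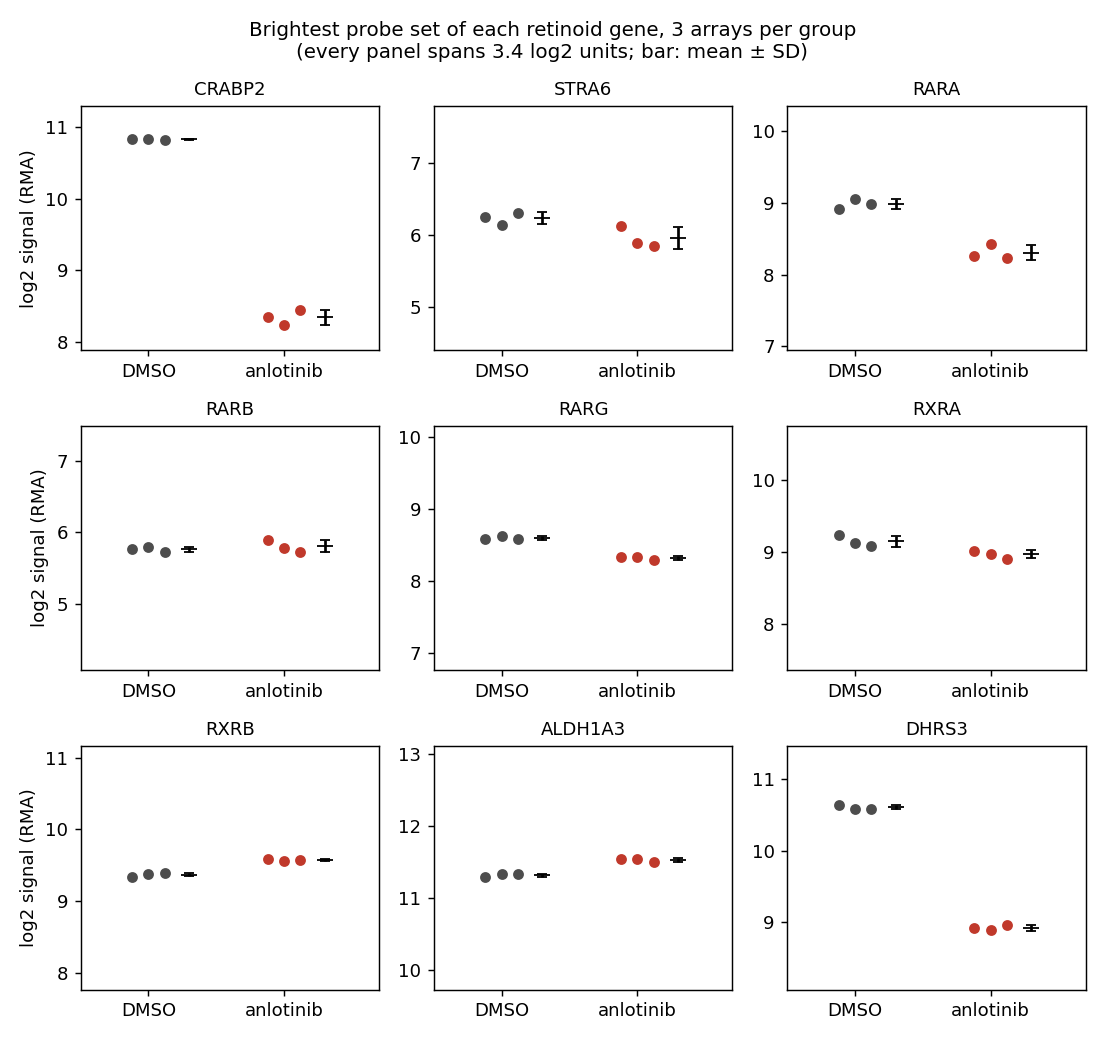
Log2 signal (RMA, y axis) of the brightest probe set of each of the 9 genes in the 3 DMSO and 3 anlotinib arrays (points), with mean ± SD beside them. Every panel spans the same number of log2 units, so the steps of CRABP2 (−2.48) and DHRS3 (−1.67) can be set against the small shifts of the receptors and ALDH1A3.

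The receptor RARA, the RAR form that most adult tissues express, is read by 10 probe sets, more than any other member. At the brightest, the signals were 8.92, 9.05 and 8.98 in DMSO and 8.26, 8.42 and 8.23 with anlotinib. The groups did not overlap, and the log2 difference was −0.68 (SE 0.06), a decrease of 1.60 times that stays under the 2-fold limit. Of the 10 probe sets 6 had a mean above the range of the absent markers in at least one group, and these gave −0.68 to −0.22, all lower. The other 4 probe sets gave −0.33 to 0.14, with the 2 values above 0 at signals of 5.42 and 5.70. The dim probe sets of RARA thus lay on both sides of 0 and the bright ones below it.

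RARG, the form best known from skin, had 5 probe sets. The brightest read 8.58, 8.62 and 8.59 in DMSO and 8.34, 8.33 and 8.29 with anlotinib. The arrays within each group were almost equal there, and the groups were clearly apart at a log2 difference of −0.28 (SE 0.04). In the 4 probe sets above the range of the absent markers the difference was −0.40 to −0.25. The fifth, at a mean of 5.46, gave 0.12 (SE 0.08) with overlapping groups.

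RARB, the form whose gene is a classical target of retinoic acid, had the element printed above and low signals at both of its probe sets. The brighter read 5.76, 5.80 and 5.72 in DMSO and 5.90, 5.79 and 5.73 with anlotinib. Those of the dimmer were 5.08, 4.70 and 5.16 against 4.67, 4.93 and 4.77. The groups overlapped at both, and the log2 differences were 0.04 (SE 0.05) and −0.19 (SE 0.13). Both lie in the range of the absent markers, so a change of RARB in either direction could have gone unread.

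The retinoid X receptors pair with the RARs and with several other nuclear receptors. RXRA was read at 9.23, 9.13 and 9.08 in DMSO and at 9.02, 8.97 and 8.91 with anlotinib. The highest anlotinib array stood just below the lowest DMSO array, with a log2 difference of −0.18 (SE 0.06), and a dimmer probe set with overlapping groups gave −0.02 (SE 0.07). RXRB moved the other way, with 9.34, 9.37 and 9.39 in DMSO and 9.58, 9.55 and 9.57 with anlotinib. Its 3 brighter probe sets gave 0.20 (SE 0.04), 0.20 (SE 0.07) and 0.20 (SE 0.07), and in each of them the groups did not overlap. The 2 dim ones, at mean signals of 5.82 and 5.03, gave 0.0013 and 0.0012. None of the receptor probe sets met the criteria for a call.

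**Figure D2:**
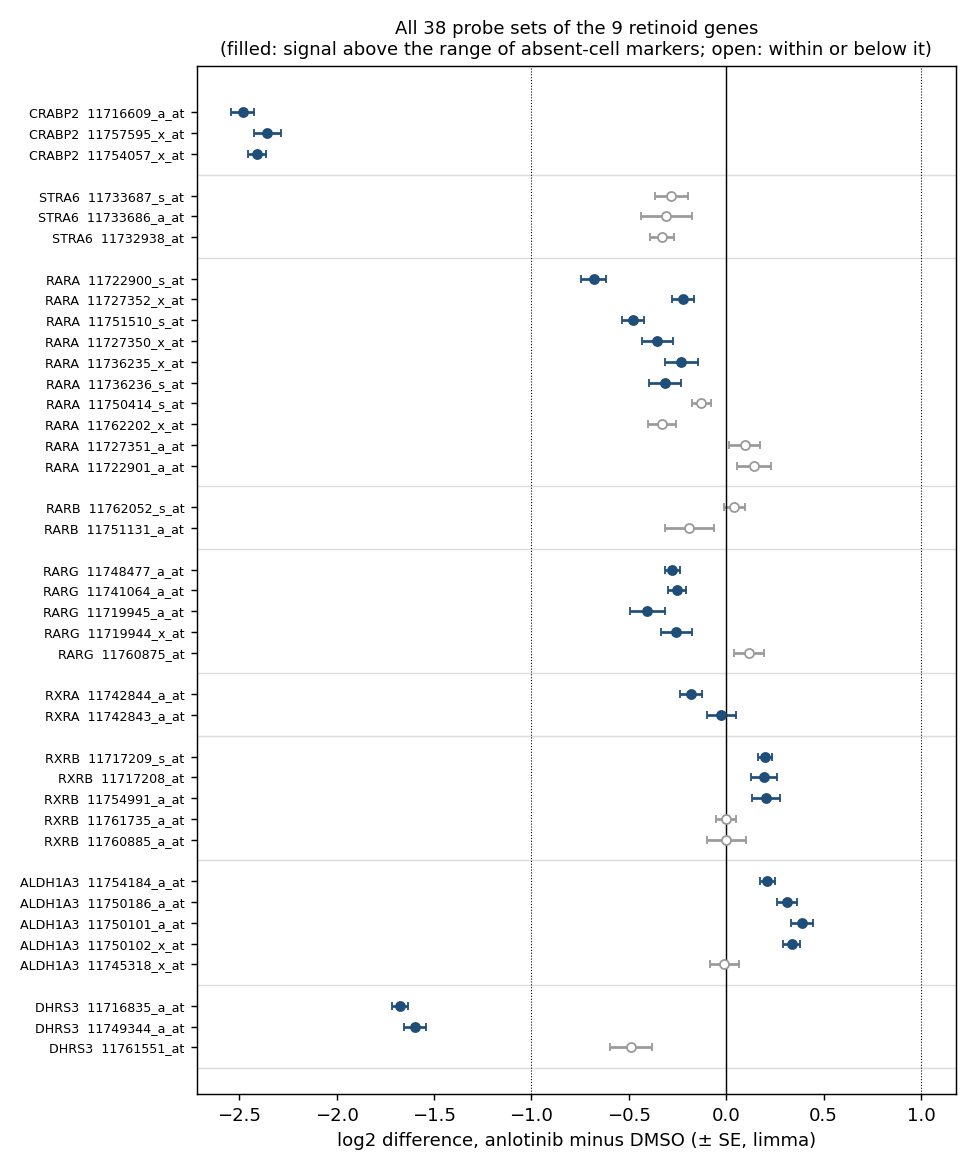
Log2 difference (x axis, anlotinib minus DMSO, ± SE from limma) of all 38 probe sets, grouped by gene and ordered by signal. Filled points had a mean above 6.54, the top of the range of the absent markers, in at least one group, and open points did not, and the filled points of RARA and RARG all lie below 0 while those of RXRB and ALDH1A3 all lie above it.

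DHRS3, the short-chain reductase that returns retinaldehyde to retinol, was the other member with a large difference. Its brightest probe set read 10.63, 10.58 and 10.59 in DMSO and 8.92, 8.89 and 8.97 with anlotinib. The groups were separated by over 1.5 log2 units, at means of 10.60 ± 0.03 (SD, n = 3) and 8.93 ± 0.04 (SD, n = 3) and a log2 difference of −1.67 (SE 0.04), or 3.19 times. The next probe set read 9.03, 9.08 and 9.07 against 7.43, 7.39 and 7.58, with −1.60 (SE 0.06). The dimmest probe set gave −0.49 (SE 0.11), from 6.10 ± 0.13 to 5.62 ± 0.20 (SD, n = 3), where its signals are inside the range of the absent markers and the size of a difference is not settled.

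ALDH1A3, the dehydrogenase that makes retinoic acid from retinaldehyde, was slightly higher. At its brightest probe set the signals were 11.29, 11.33 and 11.33 in DMSO and 11.54, 11.55 and 11.50 with anlotinib. The groups did not overlap, and the log2 difference was 0.21 (SE 0.04), or 1.16 times. The 4 probe sets with signals above the absent markers gave 0.21 to 0.39, and in each of these the groups did not overlap. The fifth, at a mean of 5.08, gave −0.01 (SE 0.07), and one more that the annotation gives to ALDH1A3 and a second gene had 0.09 and is not a member.

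Over the 38 probe sets, 25 had a difference below 0 and 13 above it, with a median of −0.23, beside a median of −0.02 and 53.3% below 0 over all tested probe sets. The criteria for a call were met by 5 of the 38, the 3 of CRABP2 and 2 of DHRS3, all lower, beside 1.71% of all tested probe sets called lower and 2.38% called higher. The arrays of the groups did not overlap in 28 of the 38, against 63.1% of all tested probe sets, and an FDR under 0.05 without the fold limit was reached by 26, against 56.6%. Nothing is read from these counts, since the members were named with the comparison known, and since the probe sets of a gene share its RNA.

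**Figure D3:**
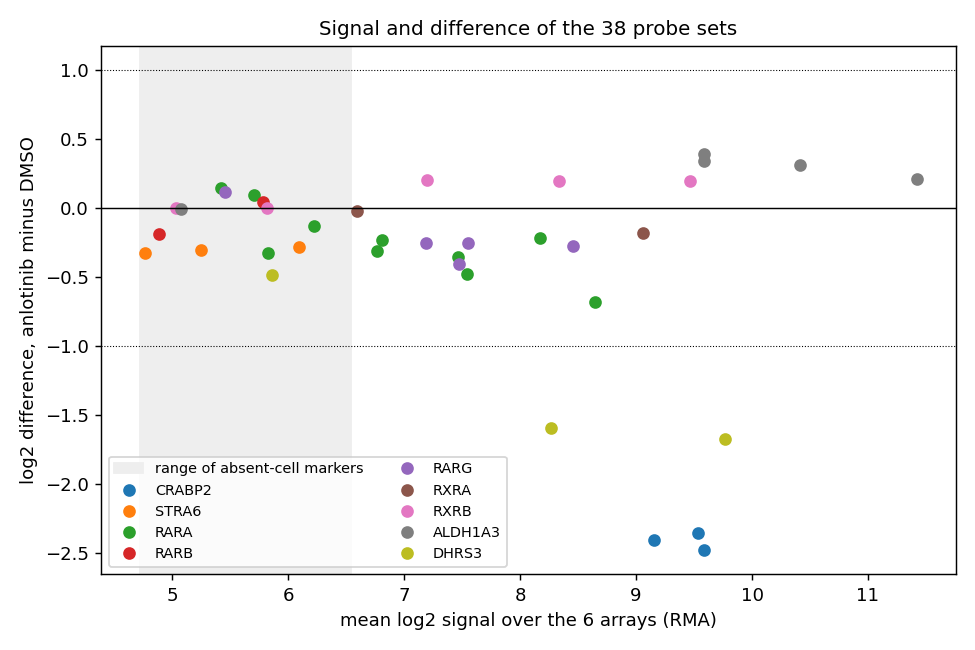
Mean log2 signal over the 6 arrays (x axis) and log2 difference (y axis, anlotinib minus DMSO) of the 38 probe sets, colored by gene. The shaded band is the range of the absent markers, 4.72 to 6.54, and dotted lines mark a fold change of 2. The band holds all probe sets of STRA6 and RARB, the dim ones of RARA, RARG, RXRB, ALDH1A3 and DHRS3, and none of CRABP2 or RXRA.

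Other enzymes of the pathway were read from a list of 27, of which 16 were measured. With limma, 1 of the 16 was called, higher with anlotinib, and 0 lower, beside 2.1% and 1.91% of the 15253 genes tested at the brightest probe set. On the FDR alone, 4 were higher and 1 lower, beside 25.4% and 29.7% of all genes, and the median log2 difference was 0.03 (all genes −0.04). The called gene was ALDH8A1, an aldehyde dehydrogenase that accepts 9-cis retinaldehyde and also acts in the breakdown of tryptophan. It rose from 3.86, 4.52 and 4.07 in DMSO to 6.26, 6.26 and 6.09 with anlotinib, by 2.05 (SE 0.16, adjusted p = 3.64e-05 from limma). Its DMSO mean of 4.15 lies below the lowest mean signal tested, so at that signal in all arrays it would not have been tested. ALDH8A1 was tested through its anlotinib arrays, which favoured a higher reading, and its p-value and call lend no support. Its anlotinib mean of 6.20 lies within the range of the absent markers, so the size of this change is not settled. ALDH8A1 has 1 probe set, and without DMSO 3 the remaining DMSO arrays exceeded the limit on variation and the gene was not tested.

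RDH10, the dehydrogenase that performs the step from retinol to retinaldehyde and so runs against DHRS3, was higher at all 3 of its probe sets without reaching the fold limit. The brightest read 7.78, 7.98 and 7.90 in DMSO and 8.33, 8.30 and 8.37 with anlotinib, with a log2 difference of 0.45 (SE 0.06, adjusted p = 4.77e-04 from limma). A somewhat dimmer one gave 0.87 (SE 0.05) and the dimmest 0.24 (SE 0.05). CYP26B1, a hydroxylase that clears retinoic acid, read 8.58, 8.52 and 8.62 in DMSO and 7.92, 7.70 and 7.89 with anlotinib. The log2 difference of CYP26B1 was −0.74 (SE 0.07, adjusted p = 8.26e-05 from limma), under the fold limit, and a second probe set at a DMSO mean of 5.92 gave −0.06 (SE 0.09).

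DHRS9 is another dehydrogenase that acts on retinol and was chosen after its values were seen. It was left out of the tested table by the limit of 25% on the coefficient of variation (CV), which its DMSO arrays exceeded at 26.5%. The limit was applied here on the linear scale. DHRS9 is among the deposited probe sets, whose number is the one that the study gives after its own CV filter. Its only probe set read 6.45, 6.18 and 5.66 in DMSO and 8.75, 8.70 and 8.85 with anlotinib. The DMSO arrays were scattered and all anlotinib arrays stood far above them. Fitted without that limit, DHRS9 was higher by 2.67 (SE 0.18, adjusted p = 2.29e-05 from limma), or 6.36 times, but its DMSO mean of 6.10 was inside the range of the absent markers, so the size of this change is not settled either. With this gene 2 listed enzymes were called higher, both from DMSO signals in or below that range. ALDH1A1, ALDH1A2 and CYP26A1 are not analysed here. The remaining listed enzymes that were higher on the FDR alone were RDH11 and RDH13, chosen after their values were seen. RDH11 had 0.26 (SE 0.04) at its brightest probe set and 0.25 and 0.06 at the others, and RDH13 had 0.23 (SE 0.04) at its brightest. The differences of DHRS3 and RDH10 had opposite signs, as had those of CYP26B1 and ALDH1A3, but these pairs were picked from more enzymes. Whether enzyme activity or retinoic acid itself changed was not measured.

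**Figure D4:**
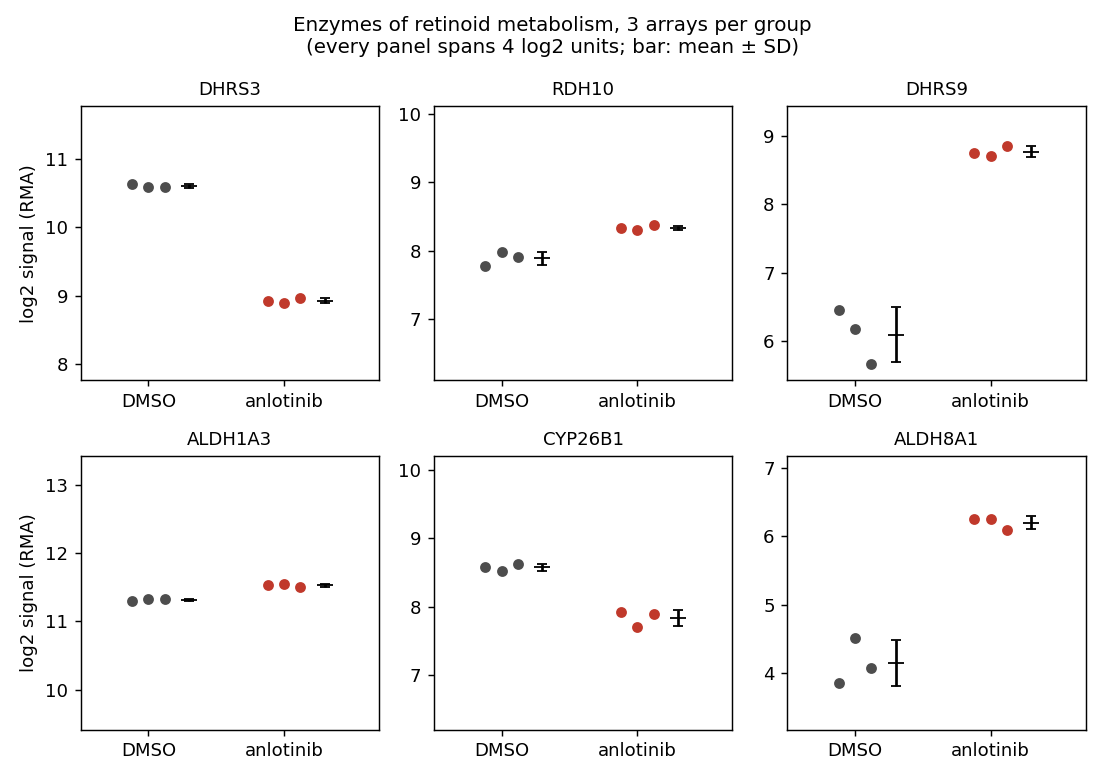
Log2 signal (RMA, y axis) of 6 enzymes in the 3 DMSO and 3 anlotinib arrays (points), each at its brightest probe set, with mean ± SD beside them. DHRS3 and CYP26B1 are lower with anlotinib, RDH10, DHRS9, ALDH1A3 and ALDH8A1 higher, and the DMSO arrays of DHRS9 and ALDH8A1 show the widest spread.

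Among carriers and storage genes, 11 of 15 were measured, and limma called 0 in either direction, beside 2.1% higher and 1.91% lower of all genes. On the FDR alone, 2 were higher and 3 lower, beside 25.4% and 29.7% of all genes. FABP5, a fatty acid carrier that also binds retinoic acid and brings it to the receptor PPARD, read 8.93, 8.87 and 8.94 in DMSO and 9.48, 9.48 and 9.63 with anlotinib. Its log2 difference was 0.62 (SE 0.05, adjusted p = 6.50e-05 from limma), opposite in sign to that of CRABP2 and under the fold limit. SCARB1, a lipoprotein receptor that also takes up carotenoids, had −0.70 (SE 0.04). The list had a median of −0.19.

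In the list that follows FABP5 and PPARD to genes of fatty acid use, 12 of 13 were measured, and 1 was called higher and 0 lower, beside 2.1% and 1.91% of all genes. PLIN2, a coat protein of lipid droplets, went from 9.21, 9.08 and 9.05 to 12.17, 12.24 and 12.13 at a log2 difference of 3.07 (SE 0.06). The other 11 lay between −0.79 and 0.62, with CAT, the peroxisomal catalase, at −0.79 (SE 0.04) and PPARD itself, chosen after its values were seen, at −0.16 (SE 0.05), and the median was 0.04.

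Of 14 other nuclear receptors that pair with RXR or bind next to it, 11 were measured, 1 called higher and 0 lower, beside 2.1% and 1.91% of all genes. The called one was NR4A2, an orphan receptor, whose arrays moved from 5.93, 5.71 and 5.74 to 7.09, 6.79 and 7.17 at a log2 difference of 1.22 (SE 0.11, adjusted p = 7.38e-05 from limma), and its other probe set gave 1.33 (SE 0.08). The DMSO signals of NR4A2 are in the range of the absent markers. NR1H3, an oxysterol receptor, had −0.56 (SE 0.07), and RXRG, the remaining retinoid X receptor, 0.04 (SE 0.07) from 5.38 to 5.42, with a sign that turned without anlotinib 1. Dimmer probe sets were called for 2 more, which were chosen after their values were seen. VDR, the vitamin D receptor, had 1.23 at the called one, 0.78 (SE 0.09) at another and 0.00 at its brightest. The called one went from 5.10 to 6.32, inside the range of the absent markers. THRA, a thyroid hormone receptor, had −1.18 at one and −0.49 at its brightest. At the called probe set THRA went from 7.41 to 6.22, and the latter is inside the range of the absent markers, so the size is not settled. The other probe sets of THRA, all dimmer, gave −0.30 to −0.06. Of 17 coactivators and corepressors, 14 were measured and limma called 0. On the FDR alone, 4 were higher and 4 lower, beside 25.4% and 29.7% of all genes. TBL1XR1, a subunit of the corepressor complex, had −0.67 (SE 0.04) and KAT2B, an acetyltransferase of histones, 0.53 (SE 0.05).

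Genes known to be induced by retinoic acid in one cell type or another were counted beside the members. Of its measured genes, the list shares CYP26B1 with the enzymes and NRIP1 with the coactivators and corepressors. The FABP5 list likewise shares FABP5 with the carriers and PPARD with the paired receptors. Of 37, 26 were measured, and 1 was called higher and 1 lower. ICAM1, an adhesion receptor for which the study lists qPCR primers, had 1.26 (SE 0.04). PLAAT4, a phospholipase and acyltransferase first cloned as a retinoid responder, read 7.24, 7.29 and 7.04 in DMSO and 6.17, 6.11 and 6.23 with anlotinib, with a log2 difference of −1.02 (SE 0.07, adjusted p = 2.69e-05 from limma). Without DMSO 1, DMSO 2 or anlotinib 2 it fell just short of the fold limit, at −0.995, −0.97 and −0.99. Its second probe set, also called, gave −1.26 (SE 0.10). The anlotinib means of PLAAT4, 6.17 and 5.60, were inside the range of the absent markers, so the size of its change is not settled. Without the fold limit 7 of the 26 were higher and 10 lower, beside 25.4% and 29.7% of all genes, and the median was −0.03. Members of this list chosen after their values were seen had differences on both sides of 0. MEIS2, a homeobox factor, had −0.69 (SE 0.06), and FOXA1, a forkhead factor of endoderm, −0.71 (SE 0.10). FOXA1 went from a DMSO mean of 6.56 to 5.84 with anlotinib, which is inside the range of the absent markers. Its second, dimmer probe set gave −0.04 (SE 0.10) with overlapping groups. ETS1, chosen in the same way, a transcription factor that is also among the qPCR primers, had 0.80 (SE 0.04) at its brightest probe set and 2.47 and 1.60 at the others, which were called. The share of the list called, 2 of 26, can be set beside 4.01% of all genes.

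**Figure D5:**
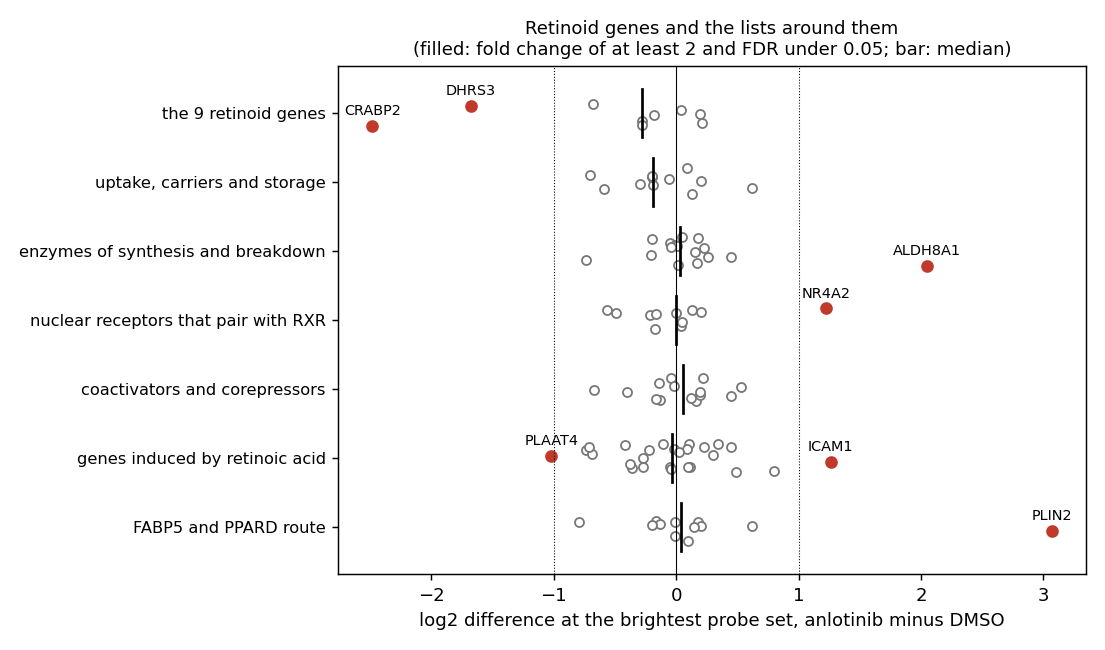
Log2 difference (x axis, anlotinib minus DMSO) of the 9 retinoid genes and of each measured gene of the 6 lists around them (rows), each at its brightest probe set, with bars for the medians. Filled, named points met both criteria for a call, and in every list most genes stayed within a fold change of 2.

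The genes whose pattern over the 6 arrays was most like that of CRABP2 were found by the Euclidean distance between the profiles of the brightest probe sets, each centred on its own mean, among 15252 other genes. They were UCP2, a mitochondrial carrier, at a distance of 0.24, SCNN1A, which forms part of a sodium channel of epithelia, at 0.28, FAAP100, a Fanconi anemia protein, at 0.31, NEURL1B, a ubiquitin ligase, at 0.41 and SPARC, a matrix protein, at 0.41. Their log2 differences were −2.32, −2.33, −2.42, −2.54 and −2.73. With 2 groups such a likeness rests almost wholly on the size of the step between them. NEURL1B read 4.25, 4.47 and 4.69 with anlotinib, below the range of the absent markers. SPARC read 6.02, 6.06 and 5.92 with anlotinib, inside that range. The size of the step is therefore not settled for either gene. With the probe sets marked x_at and s_at left out, UCP2 was read by another one at −0.77. DHRS3 stood at rank 38 of the 15252, at a distance of 0.99.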

How the data were processed

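RNA of 3 PANC-1 samples treated with anlotinib and 3 treated with DMSO was read on Affymetrix PrimeView arrays, and samples were grouped by their titles. The deposited log2 values are RMA signals computed by the authors, which corrects the background, brings the arrays to one distribution and combines the probes of each set. Per the study's methods, probe sets in the lowest 20% of signal or with a CV over 25% within a group were filtered, on a scale not stated. The study counts 39219 probe sets after its filters, the size of the table used here. No scanner files were used here. From these, 73 controls were left out here, and so were 83 with a CV over 25% within a group on the linear scale. The other 39063 entered lmFit and eBayes of limma 3.58.1 (R 4.3.3), with Benjamini-Hochberg adjustment across the whole table. Probe sets were named through the platform annotation, updated by entrez identifier, which matched 35843 of 35858 probe sets with 1 gene. A gene in a list is taken at its brightest probe set. Arrays give no counts, so their number limits the precision, and an exact permutation test of a single value with 3 against 3 cannot go below p = 0.1.

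The members and lists were chosen with earlier results of these data known. Named are every member, the called genes of each list (where under 2 were called, the 2 that passed the FDR with the largest difference), a few genes close to a member, and the 5 nearest profiles. Genes outside this rule are given in the text as chosen after their values were seen, or as markers. Among the genes close to a member, CRABP1, CYP26A1, ALDH1A1 and ALDH1A2 are not analysed here. The procedure was tested on simulated data. Alternatives covered the CV limit, low signals, normalization, the fold limit, the variance model, the replicate number as a block, cross-hybridizing probe sets, the probe set per gene and each array left out.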

Additional observations from a re-analysis of the deposited data

How the results depend on the processing

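All 423 alternative values of the member differences stayed within 1 SD of the replicates of the reported value. Except for the second normalization, this outcome was fixed in advance, so it lends no support. Leaving out 1 of 3 arrays cannot shift a difference by that much, and the filters and the block leave it unchanged. The 5 called member probe sets kept their sign in each setting that holds them. With probe sets marked x_at and s_at left out, 3 member probe sets were called. At a fold limit of 1.5, calls rose to 6141 of all probe sets from 1596, to 3 carriers, 2 enzymes, 1 cofactor, 6 genes induced by retinoic acid and 3 of the FABP5 list. Without the CV limit, or with it on the log2 scale, 2 enzymes were called, in each case with DHRS9 added. With the lowest 40% of signals left out, 0 enzymes, 0 paired receptors and 1 induced gene were called, since the dim probe sets of ALDH8A1, NR4A2 and PLAAT4 were no longer tested. With the probe set of the smallest p, 3 paired receptors were called. With 1 array left out, 1 to 2 induced genes were called, and the loss was PLAAT4. The numbers of the samples do not pair them: the deviations of samples with the same number correlated at 0.167, 0.00625 and −0.145, 2 of 6 samples correlated best with their own number, and with the replicate number as a block 1596 probe sets were called in all and 5 of the members, the same counts as without it. Signals near the bottom of the table limit what can be read for STRA6, RARB and ALDH8A1.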
